A study of Mus musculus with 15 samples.

Results

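Levels of 9 genes of the complement system were followed in MH-S macrophages across all conditions of the study. They are C1qa, C1qb and C1qc, the chains of the recognition molecule C1q; C3, the central component; Cfb and Cfp, factor B and properdin of the alternative pathway; and C3ar1, C5ar1 and C5ar2, the receptors for the anaphylatoxins C3a and C5a. The list was selected on the levels of these genes in the 5 groups, which are therefore given as a description, without a test. It takes 9 of the 78317 gene identifiers in the count table, all 9 were found under 1 identifier each, and 8 had enough counts to enter the 15-library and the 9-library fit. Factor B, the gene Cfb, was below the filter on low counts in both of these fits.

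The study measured how alveolar macrophages respond to inhalable microrods of calcium phosphate (CaP) in comparison with silica (SiO2). RNA was sequenced from MH-S, 1 line of murine alveolar macrophages transformed with SV40 and grown in serum-containing medium. There were 5 groups of 3 wells, each treated for 24 h. M0 cells received medium alone, M1 cells LPS (1 µg/mL) and IFN-γ (20 ng/mL), and M2 cells 20 ng/mL IL-4. Microrod-exposed cells received CaP-Alg-Prot/CMC(3DL) or SiO2-Alg-Prot/CMC(3DL) rods at 0.1 mg/mL, in which nanoparticles joined by alginate (Alg) are coated with protamine (Prot) and carboxymethyl chitosan (CMC). The paper states that the rod types differ in density, so that equal mg/mL hold different numbers of rods. It also reports higher cytotoxicity of the SiO2 rods. Between the rod types, material, rods per cell and cytotoxicity therefore cannot be told apart. No genotype differed between the groups. Each microrod well held its own batch of particles and the cells were of the same passage, so neither passages nor other lines enter the replicate error.

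Complement is a cascade of plasma proteins that marks particles and microbes for uptake. C1q, built of A, B and C chains, binds immune complexes and dying cells and starts the classical pathway, whereas the alternative pathway amplifies deposited C3 through factor B and is stabilised by properdin. The cleavage fragments C3a and C5a act on receptors of phagocytes. Most complement proteins come from the liver, but macrophages are the main source of C1q and a known source of C3 and properdin.

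Levels are given as CPM (the count of a gene scaled to library size), as mean ± SD of 3 libraries. Fold changes come from edgeR fits over all genes. Libraries held 8459643 to 68750050 counts (median 14879931) of amplified cDNA without molecular identifiers, so floors given in counts cover counting error alone. In a principal component analysis, M2 replicate 2, M0 replicate 3 and SiO2 replicate 2 had the lowest scores on PC2 (24.1% of the variance). Values without these 3 libraries are given for part of the genes and comparisons, and not all that moved are listed. All 8 macrophage markers were detected, at a sum of 1670 to 3720 CPM, and Mertk was at or under 3 counts in the M1 and the SiO2 libraries. The 8 alveolar macrophage markers summed to only 3.57 to 7.58 CPM outside M2 and to 29.6 to 35.6 CPM in M2. Itgax, Mrc1 and Fabp4 were above 3 counts in a library of every group, Pparg in every group but M1, and Marco in M0, M1 and CaP. Siglecf and Chil3 were above it only in M2, and Car4 in no group. Markers of T cells, epithelial cells and fibroblasts did not exceed a sum of 0.258 CPM, and those of neutrophils and endothelial cells 1.78 CPM. B cell markers summed to 9.04 to 14.5 CPM in M1, where Cd79a and Cd79b were above the floor of 3 counts and Ms4a1 was at 0, and to at most 1.71 CPM elsewhere. Their part in the M1 results was not tested. In bulk RNA, fewer cells that express a gene and less RNA per cell cannot be told apart.

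Upstream sequences are shown for C1qb, C1qc and C3, whose means were highest in M2. The mean of Cfp was also highest in M2, but its sequence is not printed. The sequences were taken from RefSeq on GRCm38.p6, which is not the build of the counts. There, 7 of the 9 genes had a sequence, in 8 windows from 250 bases before to 50 bases after a start. C1qa and Cfb had none. Each is printed on its own strand up to the start of transcription, except that the C1qc run ends 151 bases before the RefSeq start because another annotated start lies upstream of it. Capitals mark GAGGAA, or its complement TTCCTC, the core of sites for PU.1, an ETS factor of macrophages, in the C1q sequences and TTGCNNAA, the core of C/EBP sites, in C3.

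C1qb, chr4:136886201-136886450, minus strand: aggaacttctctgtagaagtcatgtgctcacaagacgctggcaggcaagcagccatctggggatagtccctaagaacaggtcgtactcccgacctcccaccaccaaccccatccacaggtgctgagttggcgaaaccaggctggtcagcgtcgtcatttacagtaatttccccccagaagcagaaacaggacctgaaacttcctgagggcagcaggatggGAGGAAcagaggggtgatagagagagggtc

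C1qc, chr4:136893066-136893164, minus strand: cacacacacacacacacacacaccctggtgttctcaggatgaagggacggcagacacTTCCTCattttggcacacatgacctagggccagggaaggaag

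C3, chr17:57228137-57228386, minus strand: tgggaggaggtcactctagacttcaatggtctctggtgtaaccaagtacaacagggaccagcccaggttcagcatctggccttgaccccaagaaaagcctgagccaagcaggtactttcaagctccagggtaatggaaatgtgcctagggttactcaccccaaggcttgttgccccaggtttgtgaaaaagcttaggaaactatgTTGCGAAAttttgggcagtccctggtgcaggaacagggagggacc

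The core GAGGAA lay 30 bases before the start of C1qb and 193 bases before that of C1qc, and further matches were found in windows of C5ar2 and Cfp. On both strands it occurred in 4 of the 8 windows, and in 28.3% of all 32851 RefSeq windows of this length. TTGCNNAA was found 45 bases before the start of C3 and in C5ar2, and in 10.8% of all windows. The STAT6-type motif TTCNNNNGAA was in C5ar2 alone and in 6.95% of all. GAAANNGAA, an interferon response type, was in C5ar1 (8.56% of all) and GGGNNNTTCC, a κB type, in C3ar1 (5.56% of all). The motifs were chosen after the windows had been read, and a match is only a match of letters.

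The 3 chains of C1q were all highest in M2 and below M0 in M1 and in cells exposed to either microrod. C1qb, the most abundant chain, was at 13.4, 26.8 and 24.3 CPM in M0 and at 90.5, 60.4 and 96.2 CPM in M2. It was at 6.71, 11.3 and 10.1 CPM in M1, at 3.2, 3.29 and 3.99 CPM with CaP rods and at 5.33, 7.19 and 4.72 CPM with SiO2 rods. No library of M2 overlapped with M0, and no library of M1, CaP or SiO2 reached the lowest M0 library. The level in M2 was 3.88-fold that in M0 (log2 fold change 1.96 ± 0.28, SE), and it was 2.26-fold lower in M1, 6.06-fold lower with CaP rods and 3.74-fold lower with SiO2 rods. In the order M2, M0, M1, SiO2, CaP, the only neighbours with overlapping libraries were M1 and SiO2.

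C1qa had lower counts, and its means were in the order M2, M0, SiO2, CaP, M1. It was at 2.24, 6.44 and 2.78 CPM in M0, at 17.3, 5.79 and 22.4 CPM in M2, and at 1.37, 0.908 and 0.674 CPM with SiO2 rods. In CaP-exposed cells it was at 0.308, 0.723 and 0.399 CPM, from 11 to 16 counts per library, and in M1 at 0.086, 0.752 and 0.0972 CPM, from counts of 1, 11 and 1. M2 replicate 2 lay below M0 replicate 2, so these groups overlapped, whereas the M1, CaP and SiO2 libraries were all below M0. The log2 fold change was 2.07 ± 0.49 in M2, -3.40 ± 0.79 in M1, -3.15 ± 0.52 with CaP rods and -1.94 ± 0.49 with SiO2 rods. Without M1 replicate 2, which held 11 of the 13 M1 counts, the M1 value was -5.29. M0 replicate 2 was the highest control, and without it the values were 2.70 in M2, -2.77 in M1, -2.52 with CaP and -1.30 with SiO2 rods.

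C1qc was at 1.69, 3.06 and 2.08 CPM in M0 and at 7.37, 14.2 and 24.4 CPM in M2, without overlap. The M1 libraries held 0.516, 0.752 and 1.17 CPM, those with CaP rods 0.554, 0.197 and 0.374 CPM, and those with SiO2 rods 0.636, 0.681 and 0.793 CPM. All 9 were below the lowest M0 library, and the CaP libraries were also below the SiO2 libraries. These levels rest on few counts, with 6, 11 and 12 in M1 and 13, 9 and 20 with SiO2 rods. With CaP rods the counts were 27, 3 and 15, so replicate 2 was at the floor of 3 counts. C1qc was 7.08-fold higher in M2 than in M0 and 2.77-fold lower in M1, 5.23-fold lower with CaP rods and 3.1-fold lower with SiO2 rods.

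Added over the 3 chains, C1q transcripts held 27.6 ± 9.61 CPM in M0, 113 ± 31.3 in M2, 10.5 ± 2.87 in M1, 4.34 ± 0.368 with CaP rods and 7.43 ± 1.3 with SiO2 rods (SD, n = 3). The sums did not overlap between CaP (4.06 to 4.76 CPM) and SiO2 (6.18 to 8.77 CPM). Between these groups the log2 fold change was -1.21 ± 0.60 for C1qa, whose libraries overlapped, -0.70 ± 0.30 for C1qb and -0.75 ± 0.42 for C1qc, whose libraries did not. Without the 3 libraries low on PC2, the 3 chains kept the sign of every comparison, with 2.23 to 2.85 in M2, -1.09 to -3.54 in M1, -2.44 to -3.29 with CaP and -1.64 to -2.03 with SiO2 rods on the log2 scale.

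**Figure D1:**
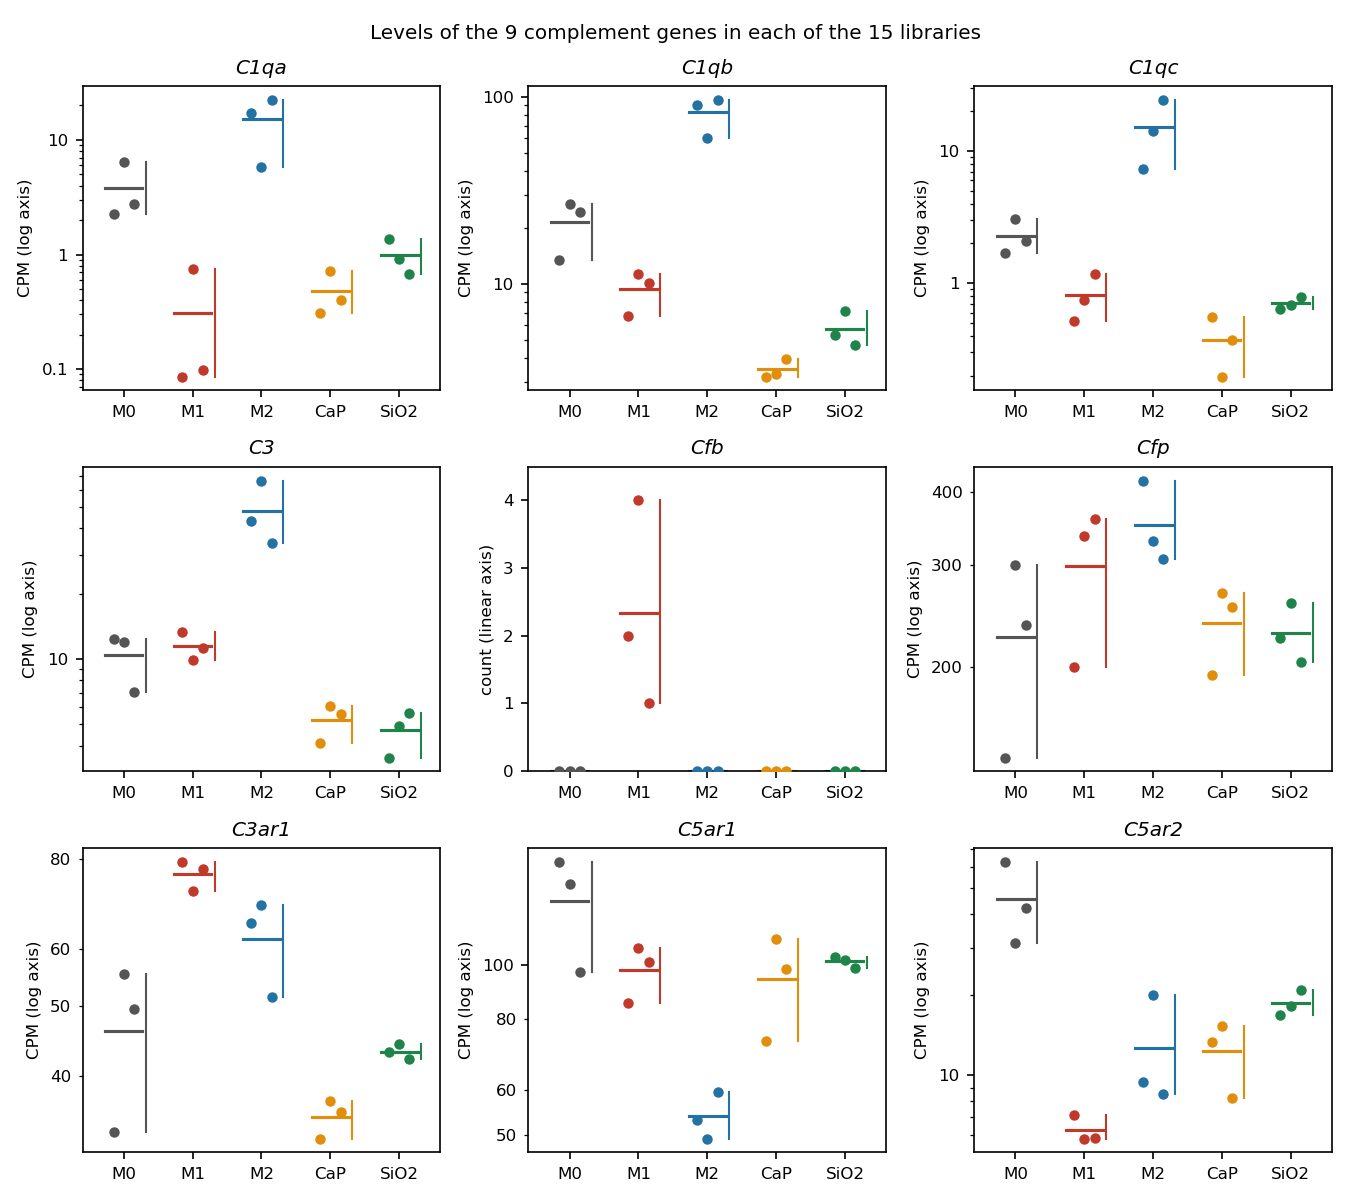
Level of each gene in the 15 libraries by group (x axis), in CPM on a log axis, with Cfb as counts on a linear axis. Points are libraries, horizontal lines are means and vertical lines run from the lowest to the highest library. All C1q chains and C3 are highest in M2, C5ar2 is highest in M0, and Cfb was counted in M1 only.

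The C1q protein holds its 3 chains in equal numbers, but the transcripts were not equal. Per kilobase of annotated exon, C1qb made up 80.6 ± 4.82% of the C1q transcript in M0, C1qa 14.5 ± 4.45% and C1qc 4.91%. The C1qb share was 77.8 ± 4.96% in M2, 83 ± 3.66% with CaP rods and 79.9 ± 4.77% with SiO2 rods, and the libraries of these groups overlapped with M0. In M1 it was 90.4 to 94.6%, above every M0 library (76 to 85.6%), and the C1qa share was 0.936 to 6.26% against 10.2 to 19.1% in M0. The C1qa share in M1 rests on 1, 11 and 1 counts. There C1qa was 10.6-fold and C1qb 2.26-fold lower than in M0. The exon lengths used (1040 bp for C1qa, 1088 bp for C1qb and 1931 bp for C1qc) take all annotated exons together, and the size of these shares and of their differences depends on them.

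C3 resembled C1q in M2 but not in M1. It was at 12.4, 12 and 7.07 CPM in M0 and at 43.3, 66.2 and 34.2 CPM in M2, 4.44-fold higher (log2 fold change 2.15 ± 0.29) and without overlap. In M1 it was at 13.3, 9.91 and 11.2 CPM, with 2 libraries inside the range of M0 and 1 above it, and the log2 fold change was 0.10 ± 0.29. It was at 4.12, 6.11 and 5.56 CPM with CaP rods and at 3.52, 4.92 and 5.67 CPM with SiO2 rods. All 6 microrod libraries were below the lowest M0 library, and the 2 rod types overlapped. Between group levels, C3 was 2.05-fold lower with CaP and 2.27-fold lower with SiO2 rods than in M0. Without the 3 libraries low on PC2 the value in M2 was 1.66, that in M1 -0.10, and those with CaP and SiO2 rods -1.24 and -1.39.

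The alternative pathway genes stood at the opposite ends of the scale. Cfb, which encodes the protease of the alternative C3 convertase, was counted only in M1, with 2, 4 and 1 counts, and had 0 counts in the 12 other libraries. Over the group this was 0.192 CPM in M1. When each other group is set to a floor of 3 counts over its libraries, this was 3.96-fold the floor of M0. It was 5.88-fold that of M2, 6.65-fold that of CaP and 3.76-fold that of SiO2. The 7 counts of M1 are taken as exact here, so these ratios are not lower bounds. At 7 counts in total, no finer statement on its level can be made. Cfb overlaps C2 in the genome, and a read-through gene of both, Gm20547, had 0 counts, whereas C2 had 407 over the 15 libraries.

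Cfp, which encodes properdin, was the most abundant of the 9 genes in each group, both in CPM and per kilobase. It was at 140, 300 and 236 CPM in M0, 200, 336 and 359 CPM in M1, and 418, 330 and 307 CPM in M2. The CaP libraries held 194, 268 and 254 CPM and the SiO2 libraries 225, 258 and 204 CPM. Only M2 was above every M0 library, with a log2 fold change of 0.64 ± 0.27. The log2 fold changes of the other groups were 0.41 ± 0.27 in M1, 0.08 ± 0.26 with CaP and 0.02 ± 0.26 with SiO2 rods, and all neighbours in the order of the means overlapped. M0 replicate 1 was the lowest of the 15 libraries, and without it the values were 0.37 in M2, 0.13 in M1, -0.19 with CaP and -0.24 with SiO2 rods, so the sign of the microrod values turned.

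Of the receptors, C3ar1, which binds C3a, was highest in M1. It was at 33.5, 55.4 and 49.6 CPM in M0 and at 79.3, 72.2 and 77.5 CPM in M1, 1.66-fold higher (0.73 ± 0.18 on the log2 scale) and without overlap. The M2 libraries held 65.2, 69.2 and 51.5 CPM, the CaP libraries 32.8, 37 and 35.7 CPM and the SiO2 libraries 43.3, 44.3 and 42.3 CPM. These 3 groups overlapped with M0, with log2 fold changes of 0.43 ± 0.18, -0.39 ± 0.19 and -0.09 ± 0.19, and that of SiO2 was 0.07 without M0 replicate 2. The CaP libraries were all below the SiO2 libraries, and the fitted level was 1.23-fold lower.

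C5ar1, the signalling receptor for C5a, was lowest in M2. It was at 152, 139 and 97.1 CPM in M0 and at 53, 49.2 and 59.6 CPM in M2, 2.4-fold lower (-1.26 ± 0.19). M1 held 85.5, 107 and 101 CPM, CaP-exposed cells 73.1, 111 and 98.3 CPM and SiO2-exposed cells 103, 102 and 98.8 CPM. These groups overlapped with M0 through M0 replicate 3, and their log2 fold changes were -0.40 ± 0.19, -0.46 ± 0.20 and -0.35 ± 0.20. Without the 3 libraries low on PC2, M0 replicate 3 among them, these were -0.58, -0.64 and -0.51.

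C5ar2, a C5a receptor that does not couple to G proteins and lies next to C5ar1 in the genome, was below M0 in every treated group. It was at 62.8, 31.2 and 42.4 CPM in M0, at 7.14, 5.81 and 5.83 CPM in M1, and at 9.48, 19.9 and 8.54 CPM in M2. With CaP rods it was at 13.3, 15.3 and 8.27 CPM and with SiO2 rods at 16.8, 18.2 and 20.8 CPM. None of the 12 treated libraries reached the lowest M0 library. C5ar2 was 7.29-fold lower in M1, 3.76-fold in M2, 3.74-fold with CaP rods and 2.45-fold with SiO2 rods, and without the 3 libraries low on PC2 the M2 value moved from -1.91 to -2.40 on the log2 scale. The M2 and CaP libraries overlapped with each other, and the SiO2 libraries were all above the CaP libraries, with a fitted level 1.53-fold higher.

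Per kilobase, the C5ar2 transcript was thus 0.258 ± 0.0836 of the C5ar1 transcript in M0 and 0.047 ± 0.0115 in M1 (SD, n = 3). The ratio was 0.0972 ± 0.0352 with CaP rods and 0.133 ± 0.0178 with SiO2 rods, below all M0 libraries (0.162 to 0.315). In M2 it was 0.103, 0.129 and 0.291, so 1 library of M2, replicate 2, lay within the M0 range and the other 2 below it.

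**Figure D2:**
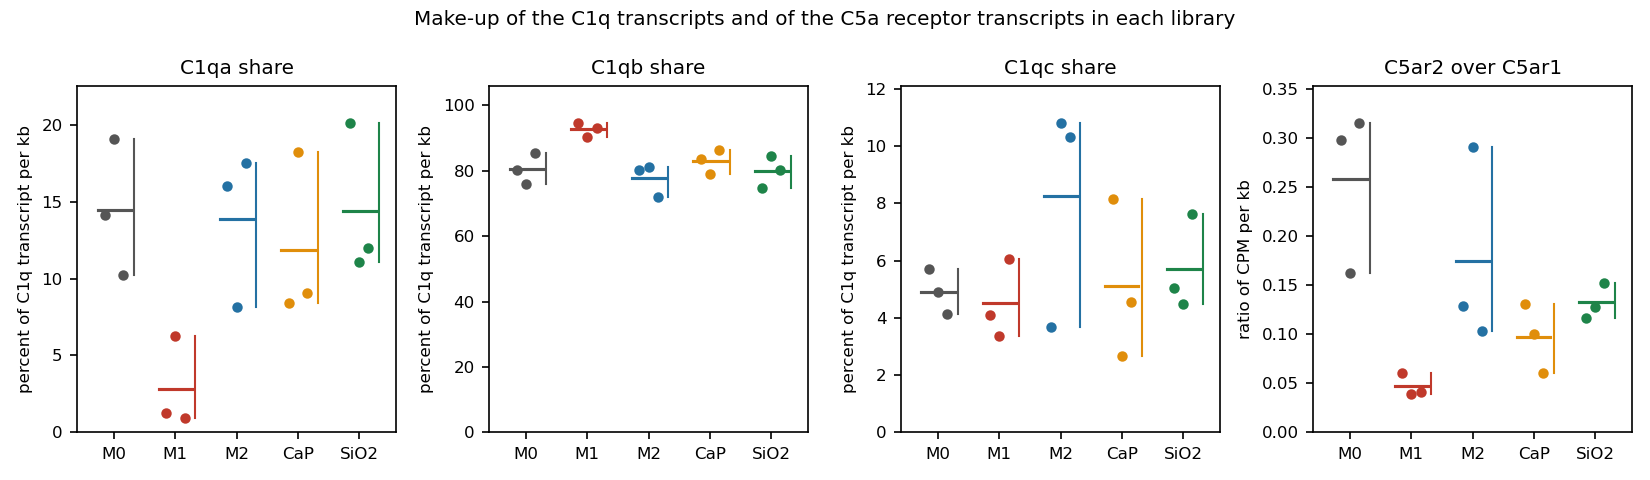
Share of each C1q chain in the C1q transcript (percent, per kilobase of exon) and ratio of C5ar2 to C5ar1 (CPM per kilobase) by library and group, with means as horizontal lines and ranges as vertical lines. The C1qb share in M1 (90.4 to 94.6%) is above that of the M0 libraries, and the C5ar2 ratio in M1 (mean 0.047) is below it.

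Set side by side per kilobase, the order of the genes differed between M0 and M2. In M0, Cfp (130 CPM per kilobase) was followed by C5ar1 (50.3), C1qb (19.8), C5ar2 (12.8) and C3ar1 (10.7), and then by C1qa (3.67), C3 (2.04) and C1qc (1.18). In M2, C1qb (75.7 CPM per kilobase) came directly after Cfp (202), while C5ar1 was at 21, C3 at 9.31 and C5ar2, now the lowest of the 8, at 3.55. In CaP-exposed cells C1qb was at 3.21 CPM per kilobase and C5ar1 at 36.6.

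By comparison, 4 of the 8 fitted genes passed the DEG thresholds (adjusted p below 0.05 in edgeR and an absolute log2 fold change above 0.5) in M1 against M0, 3 of them lower and C3ar1 higher, where 14.1% of all genes tested did. In M2 there were 6 (C1qa, C1qb, C1qc and C3 higher, C5ar1 and C5ar2 lower), against 4.13% of all genes. In CaP-exposed cells there were 4 (C1qa, C1qb, C1qc and C5ar2, all lower), against 0.409%. In SiO2-exposed cells there were 0, against 0.0602%, and between the rod types 0, against 0.0241%. Nothing is read from these counts, since the genes were chosen on these levels. In M1, C1qb missed the thresholds without M0 replicate 2 or M1 replicate 1, C3ar1 without M0 replicate 1 or M1 replicate 3, and C1qc passed them without M2 replicate 1 or 3. In M2, C1qa missed them without M0 replicate 1 or 3 or M2 replicate 1 or 3. The 4 in CaP-exposed cells became 1, C1qb, without M0 replicate 1 or 3, without CaP replicate 2 or 3, without any 1 of the SiO2 libraries, or without the 3 libraries low on PC2, and the 0 in SiO2-exposed cells became 4 (C1qa, C1qb, C3 and C5ar2) with DESeq2. DESeq2, the tool that the study used, called 5 with CaP rods, adding C3, and 5 in M1, adding C1qc. It called the same 6 in M2 and 0 between the rod types. Over all genes it fitted, DESeq2 called 590 of 45324 with CaP rods, 124 with SiO2 rods and 15 between the rod types. In M1 and M2 it called 2758 and 944 of 52647. These totals hold genes that its default leaves out of the adjustment, so they are not genes tested. The edgeR fits called 68 of 16621 genes with CaP rods and 10 with SiO2 rods, so DESeq2 called more genes throughout the microrod comparisons.

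Libraries of both groups did not overlap in CPM for 5 of the 8 genes in M1 against M0 (1 higher and 4 lower), where this held for 32.2% of all genes tested, and for 6 in M2 (4 higher and 2 lower), against 15.2%. It held for 5 with CaP rods, against 17.4%, for 5 with SiO2 rods, against 18.0%, and for 4 between the rod types, against 8.10%, all of them lower in the group named first. The 5 genes in both microrod comparisons were C1qa, C1qb, C1qc, C3 and C5ar2, and these comparisons share the M0 libraries. The median log2 fold change over the 8 genes was -0.79 in M1, 1.30 in M2, -1.47 with CaP rods and -1.23 with SiO2 rods, and that of all genes tested was between -0.02 and 0.07.

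**Figure D3:**
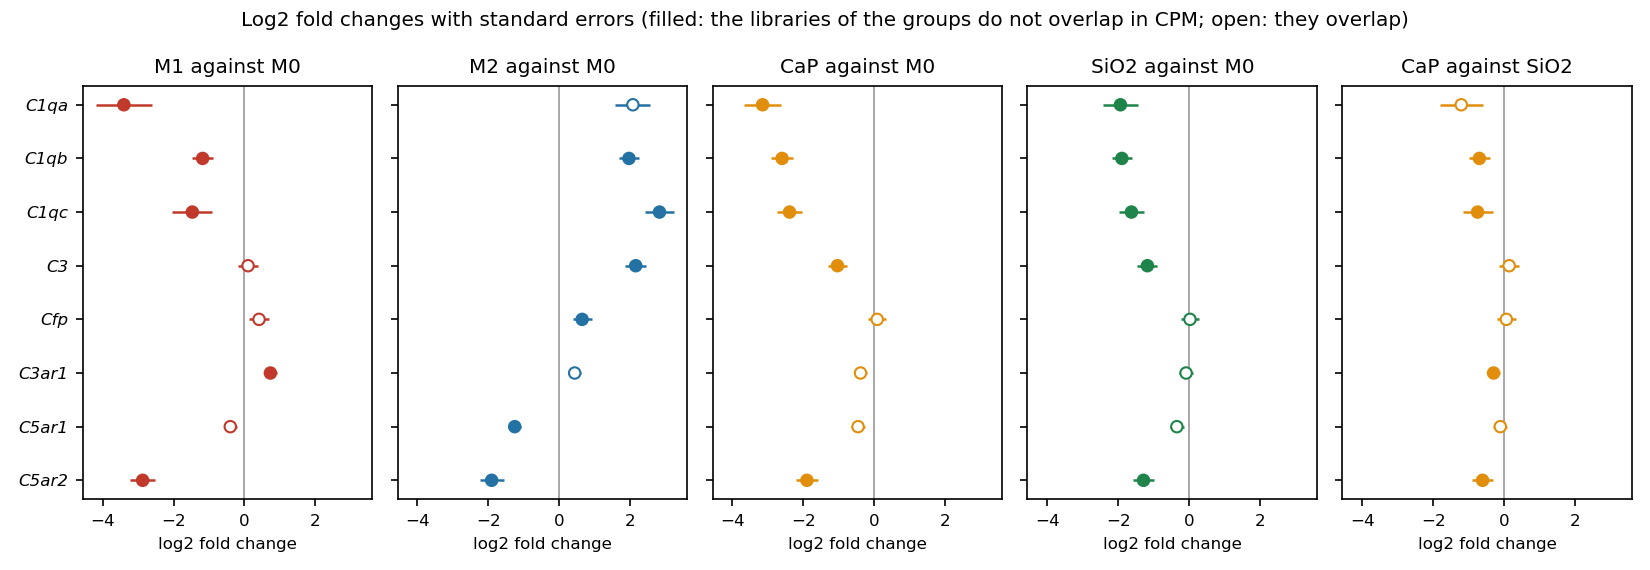
Log2 fold change of 8 genes (y axis) in 5 comparisons (panels), with standard errors from the edgeR fits as horizontal bars. Filled points mark genes whose libraries do not overlap between the groups compared. The C1q chains lie at 1.96 to 2.82 in M2 against M0 and between -1.63 and -3.15 in both microrod comparisons with M0.

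For each gene, the genes with the most similar course over the 15 libraries were sought among 9890 with a mean of at least 5 CPM, by the root mean square difference of log2 CPM after each gene's own mean had been subtracted. Small values mean a similar course, but a gene that varies little has many neighbours, so the values are a description. The difference was not scaled for how much a gene varies, and C1qa and C1qc held few counts. The mean of the C1q chains, set against genes other than the chains, had nearest neighbours farther off than the other genes searched. The nearest were Klhl33 and Gm19434 at 0.84 and Aif1, the macrophage actin-binding protein IBA1, at 0.86, and Aif1 was at 24.5 CPM in M0, 43.1 in M2, 4.47 in M1, 7.2 with CaP and 7.02 with SiO2 rods. For C3, the nearest were the C-type lectin receptor gene Clec4a3 at 0.35, Dse at 0.48 and the carbonyl reductase gene Cbr2 at 0.55, and Clec4a3 was at 13.1 CPM in M0, 67.5 in M2, 16.9 in M1, 5.07 with CaP and 6.83 with SiO2 rods. For C5ar2 they were Pdcd4 at 0.38, Gm28875 at 0.43 and Gid4 at 0.45, and Pdcd4 was at 262 CPM in M0 and at 58.2 CPM in M1.

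C5ar1 was nearest to the growth factor receptor gene Igf1r at 0.20 and to Nfe2l2, which encodes NRF2, and Irf2bpl, both at 0.23. C3ar1 was nearest to Chid1 at 0.18, Pmvk at 0.21 and Gstp1 at 0.22, a gene with close copies whose reads may be split. Cfp was nearest to Rmnd5b at 0.12, Tuba4a at 0.17 and Nit1 at 0.18. Cfb was below the filter and had no profile.

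The rest of the complement system was described with 50 further genes, from the classical and lectin pathways to the terminal components, regulators and receptors. Of these, 24 were at or under 3 counts in every library and 19 had enough counts to be tested. In M1 against M0, 2 of the 19 rose and 3 fell, where 14.1% of all genes tested were DEGs. Itgb2, the β2 chain of the complement receptors CR3 and CR4, rose from 64.8 ± 15.5 to 139 ± 29.4 CPM (adjusted p = 0.0241, edgeR), and C9, a pore-forming terminal component at the low level of 0.723 ± 0.28 CPM in M0, to 1.79 ± 0.474 CPM (adjusted p = 0.0406, edgeR). The α chain genes Itgam and Itgax, named after their values were seen, were not called. Itgam was at 33.2 ± 4.69 CPM in M0 and 32.1 ± 5.47 in M1, and Itgax at 2.51 ± 0.48 in M0 and 1.62 ± 0.0417 in M1. Fcna, a ficolin of the lectin pathway, fell from 36.4 ± 4.57 to 19.7 ± 0.788 CPM (adjusted p = 0.0106, edgeR), and Lair1, an inhibitory receptor that binds collagen and the collagen-like part of C1q, from 25.8 ± 3.69 to 16 ± 1.04 CPM (adjusted p = 0.02, edgeR). Fcna remained a DEG in all 22 alternatives run, Itgb2 in 18, Lair1 in 15 and C9 in 7. Lair1 missed the threshold of edgeR without M0 replicate 2 or 3 or M1 replicate 1 or 2 (adjusted p of up to 0.0837), without the 3 libraries low on PC2 (adjusted p = 0.0514), with other libraries in the model (adjusted p = 0.0687) and without a filter (adjusted p = 0.153). Itgb2 missed it without M0 replicate 1 or 3 or M1 replicate 2 or 3, with an adjusted p of up to 0.107 in edgeR. For C9 the adjusted p reached 0.181 in edgeR, without M0 replicate 1, and it missed the threshold in 15 of the 22 alternatives. These were no filter, the replicate block, the legacy quasi-likelihood, DESeq2, other libraries in the model, and the fits without M0 replicate 1 or 2 or any 1 of the M1 libraries, M2 replicate 1, CaP replicate 2 or 3, or SiO2 replicate 1 or 3.

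In M2 against M0, 1 of the 19 fell and 0 rose, beside 4.13% DEGs over all genes tested. Cd93, a lectin-like receptor first described as a C1q receptor, fell from 51.7 ± 15.5 to 8.07 ± 0.687 CPM, 6.5-fold (log2 fold change -2.70, adjusted p = 8.95e-05, edgeR), and remained a DEG in all 22 alternatives. An unadjusted p below 0.05 was given by edgeR for 6 of the 19 genes in this comparison. DESeq2 called 4, adding Clu, Colec12 and Lair1. With CaP rods 0 of the 19 were DEGs by edgeR, although 6 were below 0.05 before adjustment, and these numbers were 0 and 3 with SiO2 rods and 0 and 0 between the rod types. DESeq2 called 1 with CaP rods, Itgam, the α chain of CR3, which was at 33.2 ± 4.69 CPM in M0 and 16.8 ± 2.73 CPM with CaP rods (adjusted p = 0.0869, edgeR), and 0 in both other microrod comparisons. Itgam was at 21.1 ± 4.16 CPM with SiO2 rods (adjusted p = 0.401, edgeR). The libraries of both rod types were below all M0 libraries and overlapped with each other. Without CaP replicate 1, edgeR called 2 with CaP rods, Itgam and C1rb. The median log2 fold change of the 19 genes was 0.00 in M1, 0.05 in M2, 0.10 with CaP and 0.00 with SiO2 rods, beside -0.01, 0.07, 0.06 and -0.02 over all genes tested.

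Of the listed genes with at least 50 CPM in a group, 3 were not called in any comparison by edgeR. C1qbp, which encodes a mainly mitochondrial protein that can bind C1q, was at 418 ± 57.5 CPM in M0 and between 448 and 512 CPM in the treated groups. Calr, the gene of calreticulin, a chaperone that can act as a C1q receptor at the cell surface, was at 108 ± 6.91 CPM in M0 and between 102 and 142 CPM in the treated groups. Lrp1, its partner at the cell surface, was at 44.1 ± 8.27 CPM in M0, 53.2 ± 15.3 with CaP rods and 48.4 ± 6.86 with SiO2 rods. It was lower in M1 (29.7 ± 8.15 CPM) and M2 (24.3 ± 6.31 CPM), where all libraries were below the M0 libraries.

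**Figure D4:**
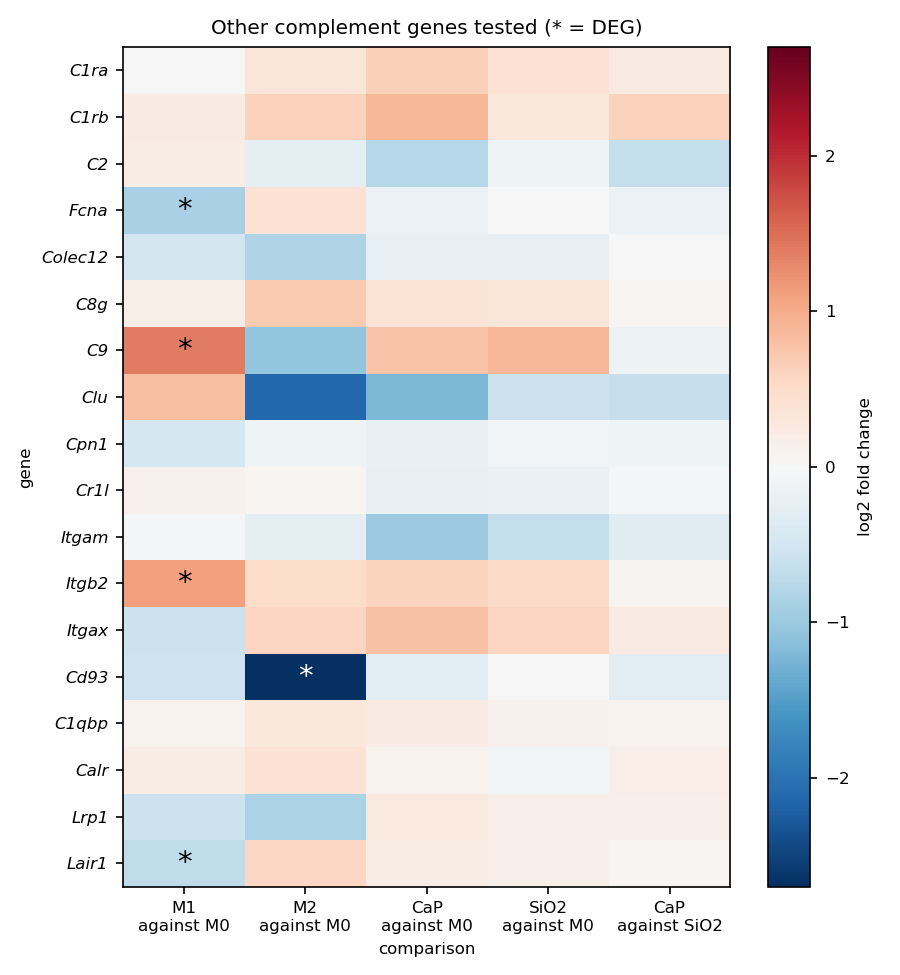
Log2 fold change (colour) of 18 of the 19 further complement genes tested (y axis) in 5 comparisons (x axis), with stars for DEGs by edgeR. Of the stars, 4 are in M1 against M0 and 1, Cd93 with -2.70, in M2 against M0, and none is in a microrod comparison.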

How the data were processed

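RNA-seq of 15 MH-S libraries (5 groups of 3) was analysed. The authors made Smart-seq2 libraries from poly-A RNA, sequenced paired 75 bp reads and ran the nf-core/rnaseq pipeline (STAR, Salmon, Ensembl annotation, GRCm39 per the labels). They deposited whole-number counts per Ensembl gene, which may be rounded Salmon estimates, without normalization or filter. Smart-seq2 does not mark strand, and reads of near-identical genes were split by that step.

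Symbols (51487 of 78317 identifiers) and exon lengths came from a GRCm38 annotation and promoter sequences from RefSeq, so no coordinates of the counted genes are given. The analysis used edgeR 4.0.16 in R 4.3.3 (filterByExpr by group, TMM, quasi-likelihood test, Benjamini-Hochberg adjustment). A model of 15 libraries (16654 genes) served M1 and M2, and one of the 9 M0, CaP and SiO2 libraries (16621 genes) the microrod comparisons. The choice of libraries for the microrods followed the study, but the study called its DEGs with DESeq2, not edgeR. The numbers of DEGs by edgeR are therefore not those of the study. DEGs passed both an adjusted p of 0.05 and a log2 fold change of 0.5 in either direction. A gene with at most 3 counts in all libraries of a group was taken to be at the floor. Replicate libraries differed by more than sampling noise in all 15 pairs. With 3 against 3 libraries an exact two-sided permutation test cannot give a p below 0.1, so p-values are those of edgeR and measure the spread between wells. The fits were tested on simulated counts with 200 changed genes.

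The 9 genes, the list of 50 further complement genes and the marker lists were chosen with earlier results of these data known. Named were the 9 genes, the DEGs of the list and its uncalled genes with at least 50 CPM in a group, the 3 nearest profiles per gene and overlapping genes. The values of 1 listed gene that fell in M1, and those of 1 motif and 1 marker, are not reported here. The alternatives were DESeq2 1.42.0, its size factors, no filter, a replicate block, other libraries in the model and each library left out in turn. DESeq2 fitted all genes with a count, and by its default left low-count genes out when adjusting p. The legacy quasi-likelihood and the fit without the 3 libraries low on PC2 were added after seeing the data.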

Additional observations from a re-analysis of the deposited data

How the results depend on the processing

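The 40 log2 fold changes of the 8 fitted genes gave 736 values under the alternatives, of which 734 moved by less than the spread between replicates. The exceptions were C1qa in M1 (-5.29 without M1 replicate 2) and C3 in M2 (1.66 without the 3 libraries low on PC2). Values near 0 turned sign under some alternatives, those of C3 in M1 and between the rod types, of Cfp in 3 microrod comparisons, of C3ar1 with SiO2 rods and of C5ar1 between the rod types. With 1 library left out, the number of the 8 genes past the thresholds ranged from 3 to 5 in M1, 5 to 6 in M2, 1 to 4 with CaP rods and 0 to 0 in both other comparisons, and that of the 50 further genes from 2 to 5 in M1, 1 to 2 in M2 and 0 to 2 with CaP rods. In CaP-exposed cells 1 of the 8 genes, not 4, remained without the 3 libraries low on PC2. In SiO2-exposed cells it was 1 without a filter or with all 15 libraries in the model and 4 with DESeq2, in place of 0. Over all genes, these settings called 17, 44 and 124 in SiO2-exposed cells, in place of 10. Of the further genes, 3 in place of 5 were called in M1 without a filter or with other libraries in the model, 2 in place of 1 in M2 without a filter, 4 in M2 with DESeq2, and 1 in place of 0 with CaP rods with DESeq2. The alternatives differ from the main fits in libraries, genes or method, and the causes of these changes were not tested.

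Replicate numbers are shared between the groups. The deviations of same-numbered libraries from their group means correlated at -0.7 to 0.6 (median -0.01, over 0.1 in 14 of 30 pairs). For libraries of other numbers this was -0.66 to 0.73 (median 0, over 0.1 in 24 of 60 pairs). Same-numbered pairs were thus like other pairs, and the main fits were unpaired. With a replicate block, 1 of the 8 genes in place of 4 passed the thresholds with CaP rods, and 2 further genes in place of 1 were called in M2.
The depth limits Cfb, C1qa and C1qc most, at 1 to 16 counts in some libraries, and the smallest library held 8459643 counts.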

Other observations

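Genes of proteases that work with C1q were in the list too, and are named here after their values were seen. C1s1 and C1s2, genes of the protease C1s, were at or under 3 counts in every library. C1ra and C1rb, genes of the protease that C1q activates, were at 4.11 ± 0.918 and 1.55 ± 0.188 CPM in M0, at 4.71 ± 2.53 and 2.11 ± 1.76 CPM in M2, and at 6.34 ± 2.85 and 3 ± 1.41 CPM with CaP rods. C2, which supplies the protease of the classical C3 convertase, was at 1.37 ± 0.114 CPM in M0, 1.16 ± 0.147 in M2, 1.59 ± 0.335 in M1 and 0.788 ± 0.253 with CaP rods. None of C1ra, C1rb and C2 was a DEG in the 5 comparisons by edgeR with all libraries of the model. C1rb was one with CaP rods when CaP replicate 1 was left out. C1ra and C1rb are close copies of each other, so the split of their reads is uncertain.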
